A study of Mus musculus with 2 samples.

Results

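Cox6a2 was 1 of 32285 genes counted in the splenic dendritic cells (DC) of wild-type (WT) and H2-Aa cit/cit mice. It was followed because earlier results of these data had shown it to be high in conventional DC of the H2-Aa cit/cit library, so its levels by class and library are given as a description, with no test. In the WT library 743 Cox6a2 unique molecular identifiers (UMIs, each standing for 1 captured RNA molecule) lay in 108 of 7814 cells. The H2-Aa cit/cit library held 8670 in 1642 of 11525 cells. Plasmacytoid DC (pDC) took 95.8% of the Cox6a2 UMIs of the WT library but 4.66% of those of the H2-Aa cit/cit library, where cDC2 took 53.9% and cDC1 29.2%.

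COX6A2 is the heart and skeletal muscle form of subunit VIa of cytochrome c oxidase, complex IV of the mitochondrial respiratory chain, which passes electrons from cytochrome c to oxygen. In most other tissues the same position in the complex is taken by COX6A1, the product of a separate gene. Among leukocytes, pDC, the cells known for their large output of type I interferon, are a known site of Cox6a2 expression in mice. Conventional DC present antigen to T cells and comprise cDC1, which excel at cross-presentation to CD8 T cells, and cDC2, which mainly prime CD4 T cells.

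The study asked how loss of the MHC class II molecule alters DC and the control of melanoma. H2-Aa encodes the α chain of that molecule, and the cit allele, induced with ethylnitrosourea on C57BL/6J, was predicted to disturb splicing of its transcript. The paper calls the allele effectively null, having detected neither mature H2-Aa mRNA nor the MHC class II complex in H2-Aa cit/cit spleen cells. Each genotype, H2-Aa +/+ and H2-Aa cit/cit, had 1 library of sorted CD45.2+ CD11c+ spleen cells pooled from 3 naive female mice of 4 months. The files used here do not tie cells to mice, so no spread between mice can be given, other differences carried by the mutagenised line or the pool cannot be told apart from the genotype, and all intervals below are 95% intervals for counting error alone. Levels are given as CPM, the UMIs of a gene in a class divided by all UMIs of that class and scaled to 1000000. H2-Aa itself, the check of the labels, lay between 3560 and 7167 CPM in the 6 WT classes described here, against 44.6 to 77.2 CPM in those of the H2-Aa cit/cit library.

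Cells were placed in classes by the number of distinct marker genes with at least 1 UMI, without use of Cox6a2. The pDC gate needed 7 of 11 genes such as Siglech, Ccr9 and Klk1, the cDC1 gate 5 of 11 such as Xcr1 and Clec9a, and the cDC2 gate 3 of 13 such as Sirpa and Clec10a. Mature DC needed 5 of 11 genes such as Ccr7 and Fscn1, cycling cells 5 of 12 such as Mki67 and Top2a, and transitional DC, cells between pDC and cDC2 in expression, 4 of 6 with both Siglech and Cx3cr1. Of the H2-Aa cit/cit pDC, cDC1 and cDC2, 20 of 115, 43 of 591 and 1072 of 6768 cells had exactly the number of markers needed. Of the genes that were no gate markers, some followed the names and others did so only in part. Irf8, a transcription factor of cDC1 and pDC, stood at 1419 CPM in cDC1 of WT and at 1555 CPM in those of H2-Aa cit/cit, against 29.0 and 31.1 CPM in cDC2. Ccl5 reached 4710 and 7154 CPM in mature DC, and Hmgb2 2306 and 1829 CPM in cycling cells. The transcription factor Batf3, however, stood at 240 and 220 CPM in cDC1 but at 348 and 364 CPM in mature DC. Irf4 was higher in cDC2 (63.4 and 57.1 CPM) than in cDC1 (3.33 and 5.02 CPM), but higher still in transitional DC (139 and 122 CPM). The 2 libraries shared 31 cell barcodes, of which 0 of WT but 2 of H2-Aa cit/cit had a Cox6a2 UMI.

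Cox6a2 lies on the minus strand of chromosome 7 at chr7:128205435-128206387 of GRCm38, with 3 exons at chr7:128206223-128206387, chr7:128205900-128206036 and chr7:128205435-128205812. The whole gene lies within the span of Itgad on the opposite strand (chr7:128154376-128223816), which encodes the integrin CD11d. The last 70 bases of Cox6a2 at most, all in its last exon, overlapped an Itgad exon, and whether the counting used strand is not given in the sources used here. Its paralog Cox6a1 lies on chromosome 5 (chr5:115345642-115348981). Since reads of a closely related copy could be shared, the coding ends of both genes are shown to let their difference be seen. The last 150 coding bases up to and including the stop codon, from the GENCODE M21 transcripts and set side by side from the stop codon without gaps, differed at 49 bases (67.3% identity), which are printed in capitals:
Cox6a2: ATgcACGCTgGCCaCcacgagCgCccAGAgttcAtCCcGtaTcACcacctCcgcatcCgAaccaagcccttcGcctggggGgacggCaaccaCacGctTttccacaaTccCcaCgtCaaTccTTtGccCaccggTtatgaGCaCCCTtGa
Cox6a1: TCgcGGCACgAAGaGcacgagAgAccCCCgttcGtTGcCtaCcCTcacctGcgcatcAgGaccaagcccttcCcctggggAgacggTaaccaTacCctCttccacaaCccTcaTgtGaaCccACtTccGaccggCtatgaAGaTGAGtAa
Over the whole transcripts, of 680 and 571 bases, the longest shared run was 12 bases, and the 3′ untranslated regions, where reads of a 3′ library mostly fall, shared 0 runs of 20 bases.

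In pDC, the only class of the WT library with a high level, Cox6a2 stood at 578 CPM (536 to 622) in 112 WT cells and at 366 CPM (331 to 404) in 115 H2-Aa cit/cit cells. The H2-Aa cit/cit level was thus lower, by a log2 ratio of −0.66 (−0.84 to −0.48), where 0.617% of the other 4054 genes that reached 50 CPM in at least 1 of the libraries (the minimum below) were at least 2-fold lower and 1.55% at least 2-fold higher. Of the pDC, 84 WT cells (75.0%) against 75 of H2-Aa cit/cit (65.2%) had a Cox6a2 UMI. With each cell thinned at random to 1500 UMIs, so that cells of different depth could be compared, the shares were 45.5% (36.1 to 55.2) and 38.3% (29.4 to 47.8), and these intervals overlap. Siglech, a surface lectin that marks pDC, stood at 2541 and 1618 CPM in the same cells, which left 0.227 and 0.226 Cox6a2 UMIs per Siglech UMI. Other genes moved with it. All 20 pDC genes listed were lower in the H2-Aa cit/cit pDC (median log2 ratio −0.37, highest −0.11), 2 of them at least 2-fold. Among genes outside the gate, Irf8 stood at 2143 against 1630 CPM, Spib at 153 against 94.3 CPM and Irf7 at 196 against 140 CPM, while Ccl5 stood at 162 against 389 CPM, Relb at 123 against 201 CPM and Batf3 at 37.3 against 70.7 CPM. The part of cells of other types within the gate was not tested.

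In cDC1, Cox6a2 had 1 UMI in 483 WT cells and 2531 UMIs in 591 H2-Aa cit/cit cells. The levels were 0.175 CPM (0.00444 to 0.977) and 289 CPM (278 to 300), a log2 ratio of 10.69 (8.21 to 15.99). It was the highest ratio of the 3571 genes at the minimum, of which, Cox6a2 left out, 4.59% were at least 2-fold higher and 2.24% at least 2-fold lower in H2-Aa cit/cit. A UMI was found in 345 H2-Aa cit/cit cDC1, 58.4% of the class, and in 25.3% (21.8 to 29.0) after thinning, while 0 of 480 thinned WT cDC1 had one, which allows a share of up to 0.625% (3 of 480 cells; exact upper limit 0.766%). These limits concern cells with a UMI at this depth, not cells that express the gene. The cell with the most Cox6a2 UMIs in either library, 53, was a cDC1 of the H2-Aa cit/cit library, against a maximum of 28 among WT pDC.

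In cDC2, the most numerous class, 17 UMIs in 3118 WT cells stood against 4677 UMIs in 6768 H2-Aa cit/cit cells, or 0.821 CPM (0.478 to 1.31) against 109 CPM (106 to 112). The log2 ratio was 7.05 (6.37 to 7.83), again the highest of all 3797 genes at the minimum, with 0.606% of the others at least 2-fold higher and 0.448% at least 2-fold lower. The UMIs were held by few cells. In the H2-Aa cit/cit library 918 cDC2 (13.6%) had any, and 7.13% (6.52 to 7.77) after thinning, against 13 WT cDC2 (0.417%) and 0.0982% (0.0202 to 0.287) after thinning. Among the 918 cells, 360 had 1 UMI, 220 had 2 to 4, 177 had 5 to 9 and 161 had 10 or more, and the tenth of them with the most UMIs held 36.6% of the total. The 13 WT cells had at most 3 UMIs each.

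**Figure D1:**
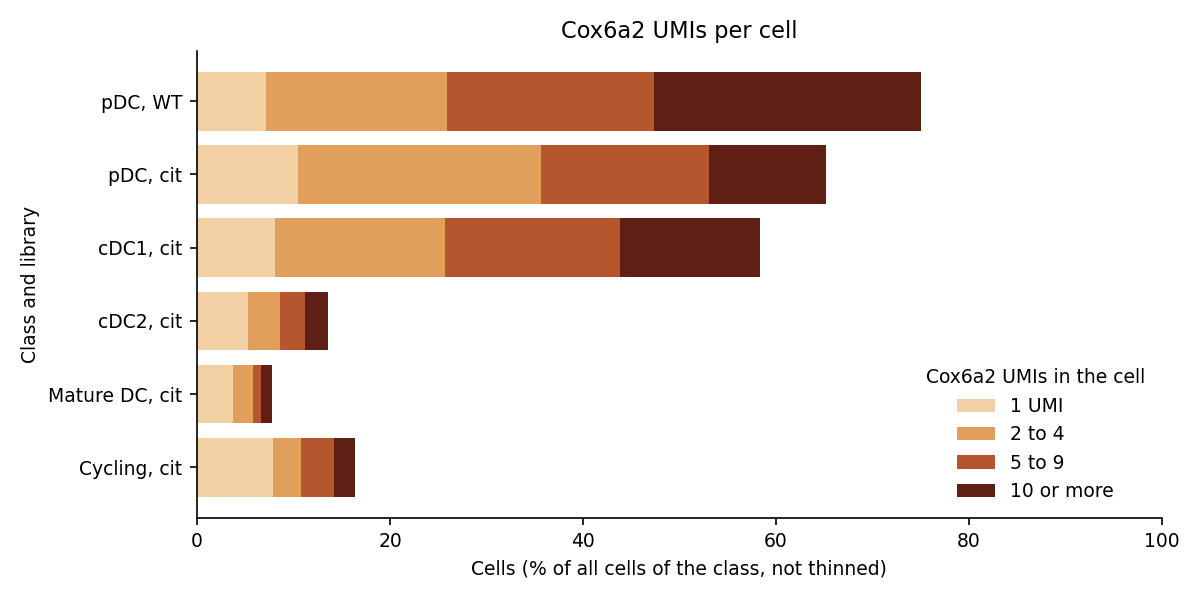
Share of the cells of a class (x axis, percent, cells not thinned) with 1, 2 to 4, 5 to 9 or 10 or more Cox6a2 UMIs, for pDC of both libraries and 4 further classes of the H2-Aa cit/cit library. The bars end at 75.0% and 65.2% in pDC, 58.4% in cDC1, 13.6% in cDC2, 7.79% in mature DC and 16.4% in cycling cells.

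The remaining DC classes gave the same direction at lower levels. Mature DC, which have taken up a migratory program, had 4 UMIs in 1675 WT cells and 311 UMIs in 976 H2-Aa cit/cit cells, or 0.30 and 51.9 CPM, with a log2 ratio of 7.43 (6.06 to 9.32). Cycling cells had 0 UMIs in 299 WT cells and 417 in 586 H2-Aa cit/cit cells, 60.1 CPM, 73.2-fold higher when 3 UMIs over the class are taken as the floor for WT. The exact lower limit of the log2 ratio was 5.89, below the 6.19 that this floor gives. Transitional DC had 1 UMI in 51 WT cells and 50 in 77 H2-Aa cit/cit cells, 1.82 and 66.2 CPM, with a log2 ratio of 5.18 (2.64 to 10.51). These 50 UMIs lay in 11 cells, 17 of them in 1 cell, and with 1 more marker in the gate the ratio was 3.22. In each of these 3 classes Cox6a2 had the highest ratio of all genes at the minimum, where 0.945%, 0.736% and 0.998% of the others were at least 2-fold higher and 1.97%, 0.613% and 1.25% at least 2-fold lower. After thinning, 3.53% (2.45 to 4.89) of mature DC, 3.97% (2.53 to 5.90) of cycling cells and 2.60% (0.316 to 9.07) of transitional DC of the H2-Aa cit/cit library had a UMI.

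By level, the classes of the H2-Aa cit/cit library were ordered as pDC, cDC1, cDC2, transitional DC, cycling cells and mature DC. The counting intervals of pDC, cDC1 and cDC2 did not touch those of their neighbours in this order, whereas those of transitional DC (49.1 to 87.2 CPM), cycling cells (54.4 to 66.1 CPM) and mature DC (46.3 to 58.0 CPM) overlapped. Outside the DC gates, 58 UMIs in 8 of 94 macrophage-gated cells of the H2-Aa cit/cit library gave 135 CPM (103 to 175), against 0 UMIs in 159 WT cells. Monocyte-gated cells had 7 UMIs in 109 H2-Aa cit/cit cells, 9.10 CPM (3.66 to 18.8), and 0 in 83 WT cells. As a measure of free RNA, 1 of 26 NK-gated cells of the H2-Aa cit/cit library had a Cox6a2 UMI (3.85%, 0.0973 to 19.6; median 3960 UMIs), and 2 of 34 did in WT. The WT NK level was 15.1 CPM (3.11 to 44.1), from 3 UMIs, above the WT level of each DC class but pDC. So few UMIs make NK-gated cells a weak measure of free RNA. Their level in the H2-Aa cit/cit library, 6.57 CPM (0.166 to 36.6), lay below the intervals of all 6 DC classes of that library, while the unthinned share of 13.6% in cDC2 (median 6264 UMIs) lay within the wide interval of the NK share and that of 58.4% in cDC1 (median 14793 UMIs) above it. In the same library 0 of 15 neutrophil-gated cells had a UMI, which allows a share of up to 20%, 1 of 14 erythroid-gated cells did, and 1 of 4 plasma-gated cells held 25 UMIs. Of 2149 cells that passed no gate, 105 (4.89%) had a UMI, against 3 of 1758 in WT.

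**Figure D2:**
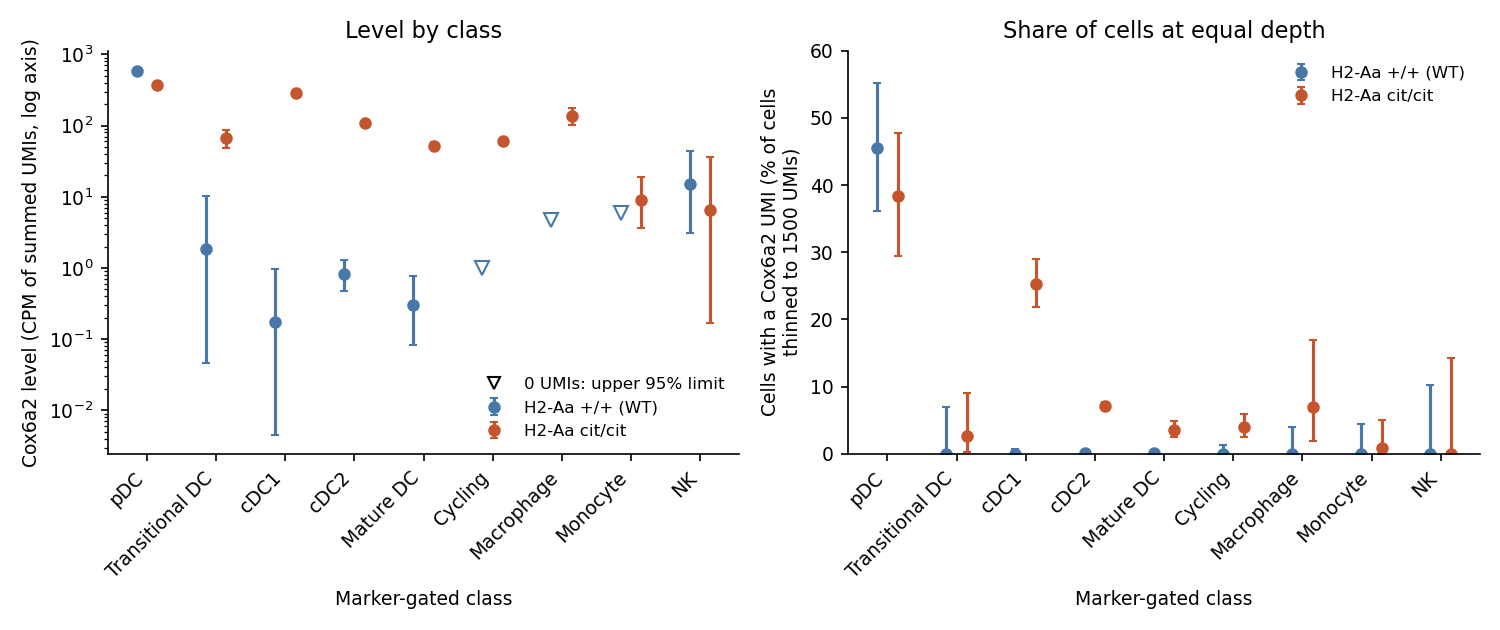
Cox6a2 by marker-gated class (x axes) in the WT (blue) and H2-Aa cit/cit (red) library, as CPM of summed UMIs on a log axis (left) and as percent of cells with a UMI after thinning to 1500 UMIs (right), with 95% counting intervals and, on the left, open triangles at the upper limit where no UMI was found. In pDC both libraries are high (578 and 366 CPM), while in cDC1 and cDC2 the H2-Aa cit/cit library (289 and 109 CPM) lies far above WT (0.175 and 0.821 CPM).

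Siglech remained low in H2-Aa cit/cit cDC1, cDC2, mature DC and cycling cells, each class taken as a whole. It stood at 1.48 CPM in cDC1, 9.0 CPM in cDC2, 1.17 CPM in mature DC and 3.03 CPM in cycling cells of that library, against 2.10, 7.43, 2.70 and 1.37 CPM in WT. Siglech is a marker of the pDC gate, applied first, and of the transitional gate, so the gating bears on these low levels. Transitional DC, whose gate needs a Siglech UMI, had 225 CPM of Siglech in H2-Aa cit/cit and 241 CPM in WT. In H2-Aa cit/cit cDC2 with 0, 1, 2 to 4, 5 to 9 and 10 or more Cox6a2 UMIs, Siglech stood at 8.31, 16.5, 14.8, 5.61 and 9.51 CPM. Per Siglech UMI there were 195 Cox6a2 UMIs in cDC1, 12.1 in cDC2, 44.4 in mature DC and 19.9 in cycling cells. In the same library there were 0.226 in pDC and 0.294 in transitional DC. In WT the ratio was 0.227 in pDC, 0.110 in cDC2, 0.111 in mature DC, 0.0833 in cDC1 and 0.00758 in transitional DC, the last pair from 1 Cox6a2 UMI each, and NK-gated cells had 3 Cox6a2 UMIs and 0 of Siglech. Of the skeletal muscle markers, the myosin heavy chains Myh1 and Myh4 and the actinin Actn3 had 0 UMIs in both libraries, Acta1 had 2 and 0, and Ckm, muscle creatine kinase, had 14 in WT against 28 in H2-Aa cit/cit. Other genes of the set were detected more often: the troponins Tnni2 with 2544 and 2560 UMIs, Tnnt3 with 313 and 147 and Tnnc2 with 41 and 34, and the myosin light chain Mylpf with 161 and 207.

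**Figure D3:**
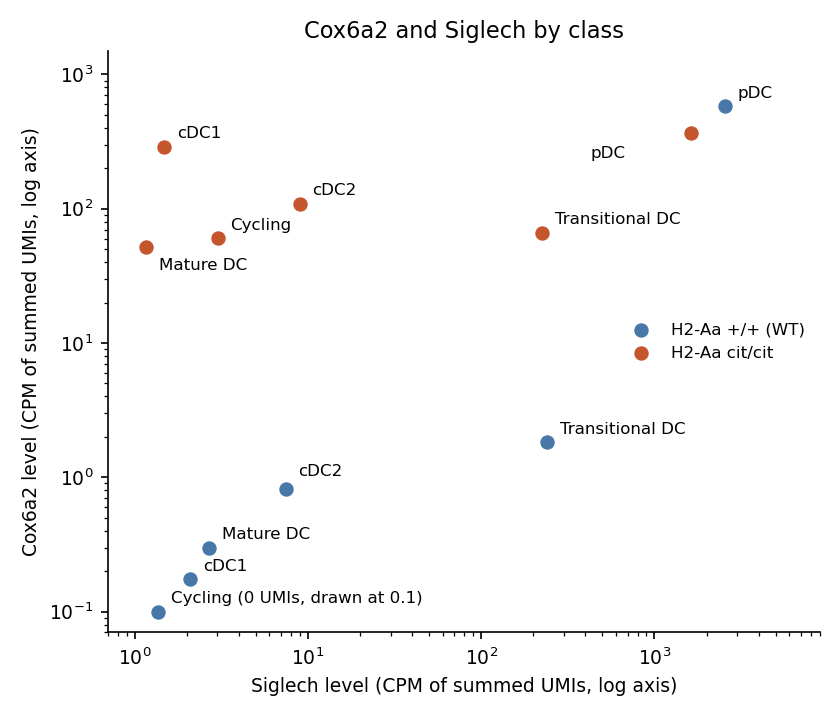
Cox6a2 level (y axis) against the level of the pDC gene Siglech (x axis), both as CPM of summed UMIs on log axes, for 6 marker-gated classes of the WT (blue) and H2-Aa cit/cit (red) library. WT classes are low in Cox6a2 wherever Siglech is low, while H2-Aa cit/cit cDC1, cDC2, mature DC and cycling cells reach 51.9 to 289 CPM of Cox6a2 at 1.17 to 9.0 CPM of Siglech. Siglech is itself a marker of the pDC and transitional DC gates.

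Among cycling cells and mature DC of the H2-Aa cit/cit library, those with cDC1 markers held more Cox6a2. Cycling cells with 5 or more cDC1 markers had 142 CPM (124 to 162), and 35 of 71 had a UMI (49.3%, 37.2 to 61.4). The other cycling cells had 36.5 CPM (31.6 to 42.0), with 61 of 515 cells (11.8%, 9.18 to 15.0), although their median depth was also lower (9151 against 19909 UMIs). In mature DC, 5 of 9 cells with cDC1 markers had a UMI, at 219 CPM (155 to 301), against 46.9 CPM (41.5 to 52.8) in the other 967 cells. The median depth of these 9 cells was also higher (19115 against 5237 UMIs). The cDC2 varied less: cells with a Ffar2 or Esam UMI and none of Ccr2 or Mgl2 had 120 CPM (116 to 124), cells with a Ccr2 or Mgl2 UMI 82.5 CPM (75.7 to 89.8), and cells with none of these 87.8 CPM (81.0 to 95).

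The share of cells with a UMI moved with depth, and the level was lowest in the shallowest cells of both cDC2 and cDC1. In H2-Aa cit/cit cDC2 of 500 to 3000 UMIs 3.09% of cells had a Cox6a2 UMI, at 17.7 CPM, from 3000 to 6000 UMIs 10.1% at 71.5 CPM, from 6000 to 10000 UMIs 17.9% at 133 CPM and above that 21.1% at 109 CPM. WT cDC2 of the same depths held 0, 0.984, 0.760 and 0.95 CPM. In H2-Aa cit/cit cDC1 the share went from 28.7% under 10000 UMIs to 74.3% at 20000 or more, with levels of 146 CPM in the first and 292 CPM in the last of these and of 309 and 301 CPM between, where WT cDC1 had 0 CPM in 3 of the ranges and 0.630 CPM in the other. The H2-Aa cit/cit level was the higher in each of the 4 depth ranges of either class.

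Cox6a1, the subunit that Cox6a2 stands in for, differed far less. It stood at 267 CPM (253 to 280) in WT cDC1 against 311 CPM (299 to 323) in H2-Aa cit/cit cDC1, and at 176 against 201 CPM in cDC2, log2 ratios of 0.22 and 0.18. As a share of the UMIs of both paralogs, Cox6a2 made up 72.5% (69.6 to 75.3) in WT pDC against 64.8% (61.0 to 68.6) in H2-Aa cit/cit pDC. In cDC1 it went from 0.0657% (0.00166 to 0.366) in WT to 48.2% (46.8 to 49.6) in H2-Aa cit/cit, in cDC2 from 0.463% to 35.2% (34.3 to 36.0), and in mature DC from 0.246% to 26.9%. The H2-Aa cit/cit cDC1 thus held about as many UMIs of the muscle form as of the general form, which in WT was seen, and exceeded, in pDC alone.

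Of the 20 other subunits listed, 15 reached 50 CPM, and 0 of these differed by 2-fold between libraries in any of the 6 classes. Since at most 4.59% of all genes passed 2-fold in 1 direction in any class, 0 of 15 is near the background and says little of the subunits as a group. Their median log2 ratio was 0.03 in cDC1 (−0.36 to 0.24), where the median of all genes was −0.05, and 0.15 in cDC2 (0.04 to 0.33), where it was −0.06. Cox4i1, a nuclear-encoded subunit, stood at 617 and 626 CPM in cDC1, and mt-Co1, the mitochondrially encoded catalytic subunit, at 3341 and 3190 CPM. The other tissue-limited isoforms stayed low. Cox8b, the muscle counterpart of Cox8a, had 0 UMIs in WT against 1 UMI in H2-Aa cit/cit, Cox7a1, the muscle form of subunit VIIa, had 37 and 33, Cox8c had 0 in every class and Cox4i2 at most 4. Cox6b2, a testis form, reached 15.9 CPM at most. Of 22 assembly factors, 5 to 8 reached the minimum in a class, and 1 passed 2-fold in 1 class, Cmc2 in mature DC at 72.1 CPM in WT against 30.2 CPM in H2-Aa cit/cit (log2 ratio −1.26). Of all genes in mature DC, 0.945% were at least 2-fold higher and 1.97% at least 2-fold lower.

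Genes beside Cox6a2 were examined next. Within 250 kb there were 13 annotated protein-coding genes, among them the integrin genes Itgam, Itgax and Itgad, which encode CD11b, CD11c and CD11d. In cDC1, 5 of them reached 50 CPM, and log2 ratios were −0.08 for Pycard, −0.07 for Rgs10 and −0.06 for Tial1. In cDC2, 6 did, and the ratio was 0.22 for Pycard and 0.19 for Itgam. Of the neighbours at the minimum, 0 passed 2-fold in either class. Of all genes, 4.59% in cDC1 and 0.606% in cDC2 were at least 2-fold higher, and 2.24% and 0.448% at least 2-fold lower. For so few genes a count of 0 is near the background and says little of the region. Itgax, the gene behind the CD11c sort, stood at 163 and 139 CPM in cDC1 and at 286 and 258 CPM in cDC2. Itgad, whose exon overlaps that of Cox6a2, had 33 UMIs in WT cDC1 against 20 in H2-Aa cit/cit cDC1, where Cox6a2 had 1 and 2531. This put Itgad, below the minimum, at 5.79 and 2.28 CPM (log2 ratio −1.34, −2.22 to −0.50). Also below the minimum, Tgfb1i1 went from 10 to 75 UMIs in cDC2 (0.483 and 1.74 CPM). Itgam, likewise below it, was higher in pDC (13.8 and 29.0 CPM), cDC1 (5.96 and 11.4 CPM) and mature DC (7.27 and 15.3 CPM). In cycling cells Itgam reached the minimum, at 43.0 and 74.2 CPM.

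To see what else marked the cells, each of the 918 H2-Aa cit/cit cDC2 with a Cox6a2 UMI was paired with a cDC2 of the same library that had none and the nearest total UMIs. Median depths were 7246 and 7245 UMIs after pairing. Having chosen the cells by Cox6a2, and with cells of 1 library being no replicates, the differences are given as a description. Of 3732 genes with at least 50 CPM in either set and a UMI in at least 20 cells of the higher set, 50 (1.34%) were at least 2-fold higher and 12 (0.322%) at least 2-fold lower in cells with a UMI. Of the 10 highest, 4 stood on the list of targets of ATF4, a transcription factor of amino acid and protein stress, and 2 on the list of folding in the endoplasmic reticulum (ER), both lists drawn up with earlier results of these data known. The transcription factor Atf5 stood at 115 CPM against 9.25 CPM, a log2 ratio of 3.64 (3.28 to 4.03), and was detected in 380 against 45 of 918 cells. The stress-induced nuclear protein Nupr1 stood at 131 against 15.5 CPM (log2 ratio 3.07, 2.78 to 3.37). Ddit3, which encodes CHOP, stood at 142 against 35.2 CPM (2.02, 1.82 to 2.22). Phgdh, the first enzyme of serine synthesis, had a log2 ratio of 2.46, Aars, alanyl-tRNA synthetase, of 1.87, and Slc7a5, an amino acid transporter, of 1.70. Derl3, of ER-associated degradation, had 1.95, the disulfide isomerase Pdia4 1.69 and Krtcap2, of the oligosaccharyltransferase, 1.63. Cxcl9, a chemokine, completed the 10 highest at 2.20, but its UMIs came from 44 and 39 cells.

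Of the 10 lowest genes, 0 stood on either list. The lists held 30 and 7 of the 3732 genes at the minimum, so a count of 0 among 10 genes is near the background. Lyz2, the lysozyme of myeloid cells, stood at 26.6 CPM in cells with a Cox6a2 UMI and at 136 CPM in those without (log2 ratio −2.36, −2.59 to −2.13). It was followed by Ccdc192 (−1.53), Slc44a5 (−1.33), the adhesion receptor Adgre4 (−1.25), the prostaglandin dehydrogenase Hpgd (−1.18), the ion transporter Slc12a2 (−1.15), Gm5150 (−1.10), the calcium channel Cacna1e (−1.09), the lectin Cd22 (−1.04) and Rasgrp3 (−1.03).

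By list, 30 of 32 genes of ER folding and quality control reached the minimum in this comparison, all 30 had a log2 ratio above 0, and 18 were at least 2-fold higher, with a median of 1.05 where the median of all genes was −0.07. After Pdia4 and Krtcap2, the largest were Sdf2l1, a chaperone cofactor, at 715 against 232 CPM, Manf, a secreted ER stress protein, at 619 against 203 CPM, and Nucb2 at 149 against 49.8 CPM. Hspa5, which encodes the chaperone BiP, stood at 1979 against 688 CPM. Xbp1, a transcription factor of this response, was near the lower end at 93.4 against 71.9 CPM. Of 15 ATF4 targets, 7 reached the minimum and 6 were at least 2-fold higher, with a median of 1.70. Atf4 itself was among them at 145 against 51.4 CPM, and Atf3 was the one that was not, at 51.3 against 53.1 CPM. The minimum could be met in either set. A target under 50 CPM in cells without a UMI thus entered only through a higher level in cells with a UMI. Slc7a5, at 64.4 against 19.8 CPM, was such a target. The same held for ER folding genes under 50 CPM in cells without a UMI, such as Nucb2 at 49.8 CPM. The counts and medians of both lists therefore lean towards higher ratios, here and in the other classes.

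The lists for pDC and interferon did not lean higher in cDC2, with 1 of 6 and 4 of 13 genes at the minimum above 0. Of all genes in this comparison 1.34% were at least 2-fold higher and 0.322% at least 2-fold lower. The counts of 0 past 2-fold that follow are thus near the background. Of 20 pDC genes, 6 reached the minimum and 0 passed 2-fold, with a median of −0.11: Bst2 stood at 148 against 127 CPM, Runx2 at 143 against 177 CPM and Tcf4, the master factor of pDC, at 189 against 199 CPM. Siglech lay under the minimum at 12.5 and 9.11 CPM. Of 24 interferon-stimulated genes, 13 reached the minimum, 0 passed 2-fold and the median was −0.24, with Ifi27l2a at 220 against 385 CPM and Isg20 at 68.5 against 44.6 CPM. Intervals lay below 0 for 8 of the 13 and above 0 for 3. Among 10 Ly6 genes, Ly6a stood at 70.8 against 51.5 CPM and Ly6e at 555 against 492 CPM. Of 22 DC transcription factors 18 reached the minimum and 0 passed 2-fold, with a median of −0.23. Intervals lay below 0 for 14 of the 18 and above 0 for 1. The share of all genes with intervals off 0 was not counted. The interval counts of these lists thus have no background and cannot be read as particular to them. The lowest were Zeb2 (516 against 729 CPM), Bcl11a (470 against 660 CPM), Etv6 (949 against 1226 CPM) and Irf4 (48.7 against 62.5 CPM). Complex IV subunits had a median of 0.05, and Cox6a1 stood at 244 against 199 CPM.

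Other cell types and depth were looked at beside these values. Before pairing, cDC2 with a Cox6a2 UMI were deeper (median 7246 against 6066 UMIs), and the median mitochondrial share was 1.50% against 1.61%. The marker sums that follow compare with all 5850 cDC2 without a UMI, not with the paired cells. The summed plasma cell markers were higher in cells with a UMI (55.3 against 13.8 CPM), with 3 of 6 genes higher, but 363 of their 389 UMIs were Derl3. The summed macrophage markers stood at 18.5 against 11 CPM, with 3 of 6 genes higher and Hmox1 giving 100 of 130 UMIs. The summed pDC markers stood at 524 against 600 CPM and skeletal muscle markers at 29.0 against 37.5 CPM. The part of these cell types in the result was not tested. In the paired cells, H2-Aa (71.0 against 75.2 CPM) and Itgad (23.8 against 22.6 CPM) were alike in both sets.

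**Figure D4:**
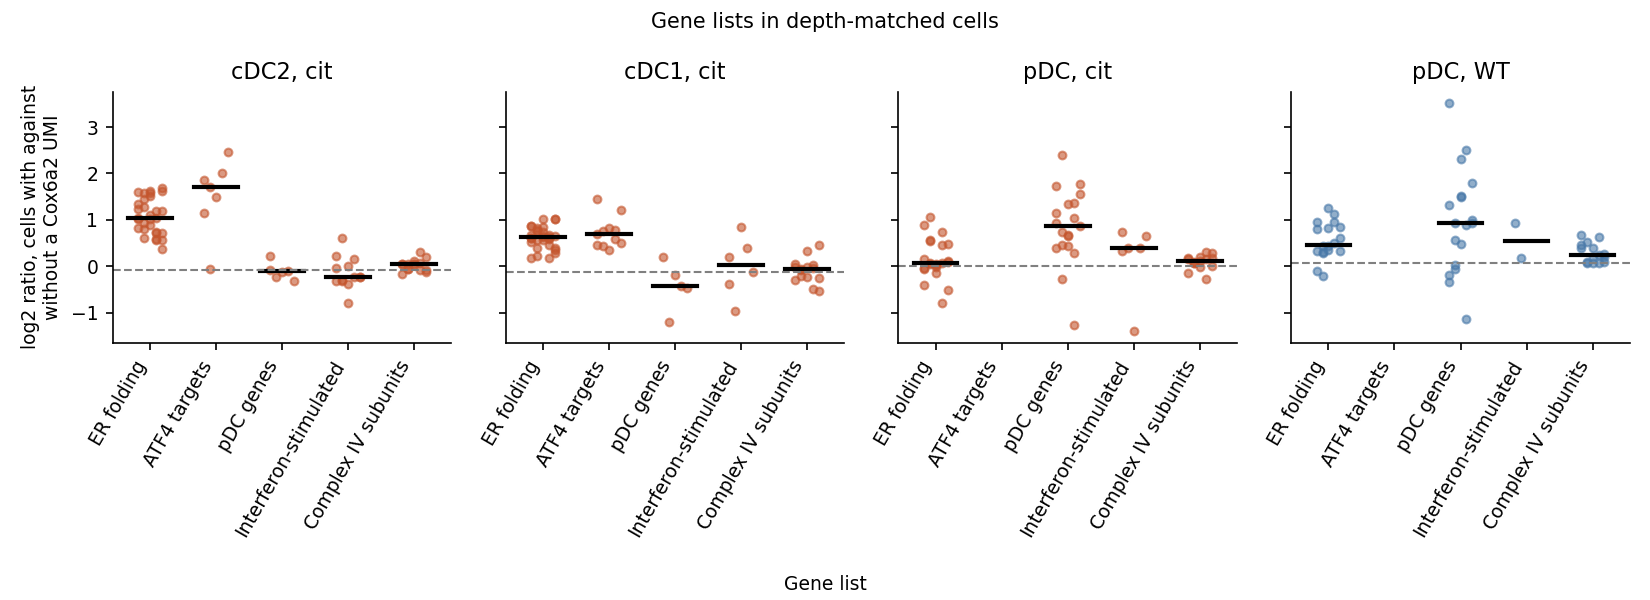
log2 ratio of each gene of 5 lists (points, genes at the minimum) between depth-matched cells with and without a Cox6a2 UMI, with the list median (black bar) and the median of all genes (dashed line), in cDC2 and cDC1 of the H2-Aa cit/cit library and in pDC of both libraries. All ER folding genes and ATF4 targets shown lie above 0 in cDC1 (medians 0.63 and 0.69), as do all but Atf3 in cDC2 (1.05 and 1.70). In pDC, 15 of 22 ER folding genes in H2-Aa cit/cit and 16 of 18 in WT do (0.08 and 0.46). Of the pDC genes there, 17 of 19 and 14 of 18 do (0.87 in H2-Aa cit/cit, 0.93 in WT).

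In cDC2, levels of several of these genes were graded with Cox6a2. In WT cDC2, H2-Aa cit/cit cDC2 without and H2-Aa cit/cit cDC2 with a Cox6a2 UMI, Hspa5 stood at 237, 688 and 1979 CPM and Sdf2l1 at 61.5, 232 and 715 CPM, so that cells without a UMI lay between. The WT values are of the whole class and the H2-Aa cit/cit values of the depth-matched cells, as for cDC1 below. The order was the same for Atf5 (2.66, 9.25 and 115 CPM), Ddit3 (13.0, 35.2 and 142 CPM) and Derl3 (0.531, 13.4 and 51.7 CPM). By contrast Aars (16.5, 17.4 and 63.4 CPM) was close to WT in cells without a UMI. Ly6a, a surface antigen induced by interferon, differed mostly between libraries. It was higher in H2-Aa cit/cit cDC2 without Cox6a2 (51.5 against 5.79 CPM in WT) and little more so in those with it (70.8 CPM). Among all H2-Aa cit/cit cDC2, taken by 0, 1, 2 to 4, 5 to 9 and 10 or more Cox6a2 UMIs per cell, Hspa5 stood at 646, 1168, 2037, 2441 and 2930 CPM and Atf5 at 10.7, 40.6, 108, 156 and 222 CPM. Cox6a1 went from 192 to 301 CPM over the same bins and Itgax from 265 to 202 CPM, at median depths of 6066 to 8088 UMIs.

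**Figure D5:**
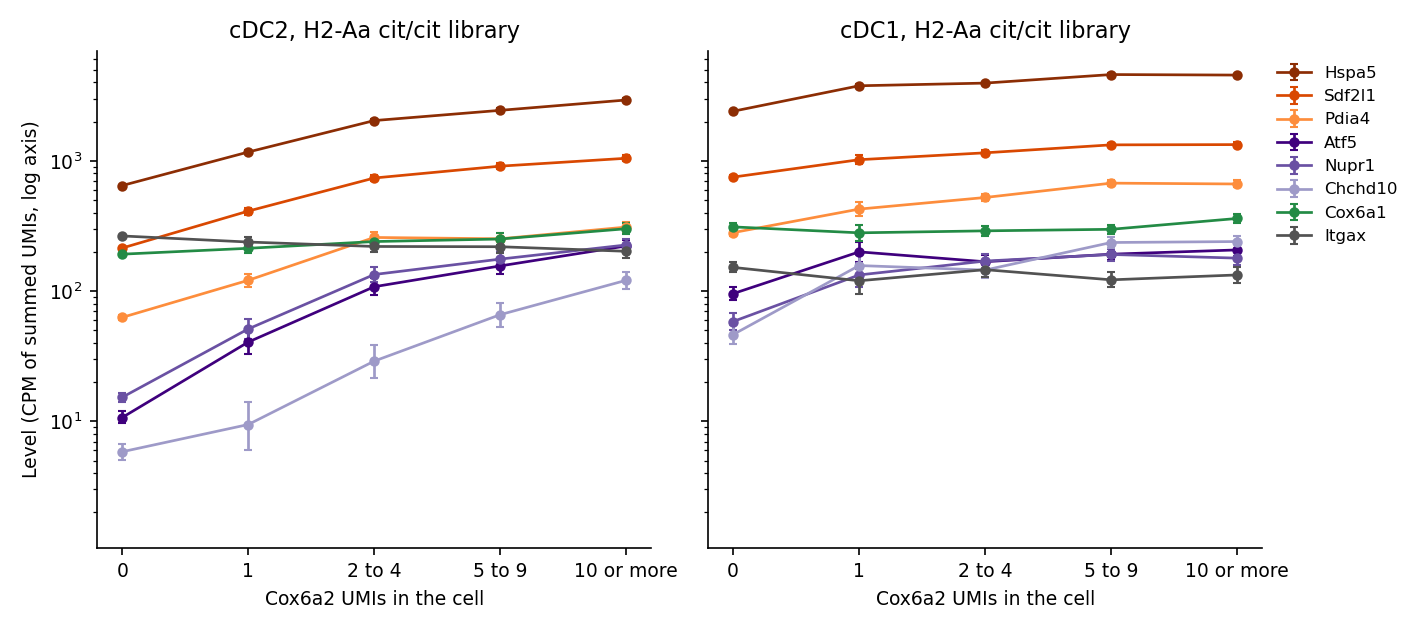
Levels of 8 genes (CPM of summed UMIs, log axis, 95% counting intervals) in H2-Aa cit/cit cDC2 (left) and cDC1 (right) by the number of Cox6a2 UMIs in the cell (x axis). In cDC2, Hspa5 climbs from 646 to 2930 CPM and Atf5 from 10.7 to 222 CPM from the first to the last bin, while Itgax does not climb. In cDC1, Atf5 goes from 95.6 CPM at 0 UMIs to 200 CPM at 1 UMI and does not climb steadily after that (168, 192 and 207 CPM).

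In cDC1 the same comparison, with all 246 cells that lacked a UMI paired to 246 of the 345 that had one (median depths 13178 and 14165 UMIs), gave 18 genes (0.509%) at least 2-fold higher and 24 (0.679%) at least 2-fold lower of 3534. The genes named for cDC1, mature DC, cycling cells and pDC were chosen after their values were seen, other than those already named. Chchd10, a mitochondrial intermembrane space protein that is high in muscle, led at 199 against 46.4 CPM (log2 ratio 2.10, 1.85 to 2.37), where WT cDC1 had 2.81 CPM. In cDC2 it stood at 47.3 against 6.98 CPM and at 2.75 CPM in WT. Nupr1 (1.63), Derl3 (1.39) and Ddit3 (1.22) were again among the 10 highest, beside the pseudokinase Trib3 (1.46), the cell cycle inhibitor Cdkn1a (1.64), the heme oxygenase Hmox1 (1.60), Ifitm6 (1.53), Ptger2 (1.28) and the autophagy receptor Sqstm1 (1.24). Hspa5 stood at 498 CPM in WT, 2402 CPM in H2-Aa cit/cit cDC1 without and 4301 CPM in those with a Cox6a2 UMI. ER folding genes had a median of 0.63, with 31 of 31 above 0 and 3 at least 2-fold higher, and ATF4 targets a median of 0.69, with 11 of 11 above 0 and 2 at least 2-fold higher, where all genes had −0.12. The lowest was Itgae, the integrin CD103 and a gate marker of cDC1, at 7.52 against 52.7 CPM (−2.81), and its WT level was 94.5 CPM. Xcr1 was alike (386 against 382 CPM). Apol7c (−1.42), Ccr2 (−1.34) and Ccl5 (−1.28) were among the next lowest. Against all cDC1 without a UMI, the summed macrophage markers stood at 87.1 against 32.5 CPM (4 of 6 genes higher, 467 of 487 UMIs from Hmox1) and the plasma cell markers at 178 against 67.5 CPM (2 of 6 higher, 987 of 997 UMIs from Derl3), and their part in the result was not tested.

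Atf5 and Nupr1 were also among the 3 highest genes in mature DC and in cycling cells, from fewer cells. In 76 matched mature DC, Atf5 stood at 114 against 10.7 CPM, Nucb2 at 123 against 12.2 CPM and Nupr1 at 114 against 21.3 CPM, and 20 of 30 ER folding genes were at least 2-fold higher (median 1.31), where 2.29% of all genes were and 1.63% were at least 2-fold lower. Against all mature DC without a UMI, macrophage markers stood at 188 against 45.5 CPM (3 of 6 genes higher, 101 of 135 UMIs from Hmox1) and plasma cell markers at 46.0 against 7.77 CPM (1 of 6 higher, 32 of 33 UMIs from Derl3), and their part was likewise not tested. In 96 matched cycling cells, Nupr1 had a log2 ratio of 2.15 and Atf5 of 2.06, and the cDC1 markers Cd8a (1.83) and Cadm1 (1.13) were also higher. Itgae, another marker of the cDC1 gate, was not (−0.23, −1.84 to 1.38), and the remaining ones are not given here. There 3 of 30 ER folding genes were at least 2-fold higher (median 0.60), where 0.275% of all genes were and 0.175% were at least 2-fold lower.

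In pDC the genes furthest apart between cells with and without a Cox6a2 UMI were others. In 28 matched WT pairs, Klk1, a kallikrein of pDC, stood at 526 against 46.2 CPM, Ly6d at 2314 against 466 CPM and Ctsl, cathepsin L, at 1433 against 281 CPM. In 40 matched H2-Aa cit/cit pairs the same genes stood at 472 against 89.5, 1476 against 713 and 1053 against 235 CPM. Siglech stood at 3043 against 1063 CPM in WT pDC, and in H2-Aa cit/cit pDC at 2633 against 1016 CPM. Of the pDC list, 8 of 18 genes in WT and 8 of 19 in H2-Aa cit/cit were at least 2-fold higher (medians 0.93 and 0.87), where 5.81% and 5.02% of all genes were and 3.85% and 4.07% were at least 2-fold lower. Of these 20 genes 11 were also gate markers, so cells at the edge of the gate bear on this count. Lower in cells with a UMI was the transcription factor Runx1 (149 against 1113 CPM in WT pDC, 211 against 1337 CPM in H2-Aa cit/cit pDC), and Cyp7b1, a sterol hydroxylase, had 0 against 247 UMIs in H2-Aa cit/cit pDC, the latter from 22 cells. ER folding genes had medians of 0.46 in WT pDC (16 of 18 above 0) against 0.08 in H2-Aa cit/cit pDC (15 of 22 above 0). The medians of all genes were 0.08 and 0.01. In either library 0 ATF4 targets reached the minimum, which needed a UMI in at least 20 cells of the higher set. With 28 and 40 cells per set, genes of low level could hardly reach that, so this 0 says little of them. Atf5 stayed at 12.2 CPM or less. Hspa5 stood at 428 CPM in WT pDC with a Cox6a2 UMI and at 597 CPM in those of H2-Aa cit/cit, below the 688 CPM of H2-Aa cit/cit cDC2 that had none.

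Across classes and libraries, the genes whose pattern was most like that of Cox6a2 depended on which points were used. Over 18 points (9 classes of at least 20 cells in 2 libraries), Pearson's r of log2(CPM + 5) among 6560 genes was highest for Uso1 (0.88) and Bet1 (0.85), which act in transport from ER to Golgi. Surf4 (0.80), a cargo receptor, and Sec61a1 (0.80), of the translocon, came next, and Nucb2 (0.79), Manf (0.78), Txndc11 (0.77), Phgdh (0.77) and Tmed2 (0.77) followed. The points of a library share its depth and free RNA, so r is a description only. With the 9 points of the H2-Aa cit/cit library alone, 2 of the 10 remained, Txndc11 and Nucb2. Uso1 stood at 130 and 138 CPM in pDC of the WT library against those of H2-Aa cit/cit, and at 72.2 and 144 CPM in cDC1. Nucb2 stood at 318 and 267 CPM in pDC, 39.1 and 287 CPM in cDC1, and 12.6 and 61.8 CPM in cDC2, high in the same places as Cox6a2 but detected in WT cDC1, where Cox6a2 had 1 UMI. Between libraries, 28 of 31 ER folding genes were at least 2-fold higher in H2-Aa cit/cit cDC1 (median log2 ratio 1.97), 15 of 29 in cDC2 (1.13) and 1 of 28 in pDC (0.09), where 4.59%, 0.606% and 1.55% of all genes were, so that the count in pDC was near the background. The minimum could be met in either library. A list gene under 50 CPM in WT, such as Nucb2 in cDC1 and cDC2, thus entered only through a higher H2-Aa cit/cit level. These counts and medians therefore lean towards higher ratios.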

How the data were processed

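Single-cell 3′ RNA libraries (10x Genomics) of sorted splenic CD11c+ cells were examined, 1 per genotype. The authors aligned reads to GRCm38 with Cell Ranger 5.0.1 and deposited UMI counts per gene and cell, not normalised. Sequencing saturation and the use of strand in counting are not given in the sources used here. All 7814 WT and 11525 H2-Aa cit/cit barcodes were kept: 51020804 and 72652201 UMIs, medians 5492 and 5633 per cell, 0 cells under 200 genes, the study's stated minimum. Doublets were not removed in the main values, and barcodes with the highest Scrublet scores (scanpy 1.11.5) were left out as an alternative.

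For each class, UMIs were added up per gene, divided by the class total and scaled to 1000000 (CPM). Intervals are exact (Poisson for levels, Clopper-Pearson for shares, conditional binomial for ratios, 95%) and cover counting error only. UMIs of 1 cell are not independent, so they are too narrow for spread between cells, and none covers mice. Classes came from marker gates, in the order pDC, other lineages, cycling, mature DC, cDC1, monocyte, transitional DC, cDC2. Depth was equalised by random thinning to 1500 UMIs or by pairing cells of nearest total UMIs, with Cox6a2 left out of totals. Ratio code was tested on simulated data. With 1 library per genotype no test was run. Genes named were Cox6a2 and its paralog, tissue-limited subunits of complex IV, protein-coding genes within 250 kb (GENCODE M21), the 10 with the highest r, the 10 highest and 10 lowest in matched cDC2, up to 5 per list and gate markers. A few genes that this rule names are not reported here. Cox6a2, the gates and the lists were chosen with earlier results of these data known.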

Additional observations from a re-analysis of the deposited data

Results flagged for a closer look

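Cox6a2 differed in direction between classes. Its log2 ratio of H2-Aa cit/cit to WT was −0.66 in pDC, where H2-Aa cit/cit was the lower, but 10.69 in cDC1, 7.05 in cDC2 and 7.43 in mature DC, where it was the higher. With 1 library per genotype the difference between classes was not tested.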

How the results depend on the processing

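No paired analysis was possible because each genotype has 1 library, and leaving out a replicate was not possible for the same reason. Over 33 alternative values of the log2 ratio in cDC1, cDC2, mature DC, cycling cells and transitional DC, 33 were above 0, and over 7 in pDC, 7 were below 0. Outside pDC, each of these WT classes held at most 17 Cox6a2 UMIs. The sign there could hardly turn, so 33 of 33 says little. In pDC the ratio of −0.66 became −0.24 with classes by highest mean marker z-score, −0.32 as a mean over cells of counts per 10000 and −0.36 after thinning to 1500 UMIs. After thinning, WT cDC1 had 0 UMIs and the ratio became a bound of 5.93, and in cycling cells, a bound of 6.19 in the main value, it became 2.74, with 5.85 for 1 more gate marker, 5.55 for z-score classes and 5.84 without the highest doublet scores. These bounds set WT to 3 UMIs, and the exact lower limit of the main value in cycling cells was 5.89. In transitional DC the ratio of 5.18 became 3.22 with 1 more gate marker, and thinning left too few UMIs for a ratio. Of the 1063 H2-Aa cit/cit cells with the highest doublet scores 20.1% had a Cox6a2 UMI, against 14.2% of all cells of that library, and of the 488 such WT cells 2.66%, against 1.38%. The causes of these shifts were not tested.

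The thinned shares of H2-Aa cit/cit cells were, unthinned, 65.2% in pDC (WT 75.0%), 14.3% in transitional DC, 58.4% in cDC1, 13.6% in cDC2, 7.79% in mature DC and 16.4% in cycling cells, where deeper counts find more cells. With z-score classes they were 12.7% in pDC (WT 10.5%), in gates of 543 and 487 cells, 21.1% in cDC1 and 5.82% in cDC2. In matched cDC2 the 50 higher and 12 lower genes became 95 and 35 with at least 2 Cox6a2 UMIs and 94 and 102 with thinning in place of matching, with 50 and 11, and 48 and 11, of the main genes shared. Leaving out cells with a Siglech or Ccr9 UMI kept 761 cells with Cox6a2, 45 of the 50 higher genes and an ER folding median of 1.06. In WT cDC2, 13 cells with a Cox6a2 UMI were too few for this comparison. Of the 10 genes most like Cox6a2, 6 stayed with a pseudocount of 20 CPM and 2 with the 9 points of the H2-Aa cit/cit library alone. Scaling by the median ratio of all genes turned the median log2 ratio of the neighbours in cDC2 from −0.05 to 0.01 and left 0 complex IV subunits and 0 neighbours past 2-fold in cDC1 and cDC2. For so few genes such counts are near the background.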
